A study of Mus musculus with 6 samples.

Results

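The early B-cell factor (Ebf) genes Ebf1, Ebf2, Ebf3 and Ebf4 were examined in ATAC-seq peak lists of skeletal stem and progenitor cells (SSPCs) from young and middle-aged mice. A locus was the gene body, 20 kb upstream of it and 1 kb either side of every protein-coding transcription start site (TSS), and every called peak that overlapped it was taken. Peaks of the 6 libraries that shared 1 bp or more were joined into regions, which gave 17 Ebf regions among 63840 regions in all, from 4 of 21829 protein-coding genes. Ebf1 held 5 regions, Ebf2 held 3, Ebf3 held 6 and Ebf4 held 3.

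EBF proteins are DNA-binding transcription factors that form dimers and recognise a palindromic site. Ebf1 is required for commitment to the B cell lineage, and Ebf1 and Ebf3 are also expressed in marrow stromal cells, where Ebf3 is known to keep the haematopoietic niche from filling with bone. Ebf2 is known from brown fat cells and immature osteoblasts, and Ebf4 is the least studied of the family.

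Both groups were untreated C57BL/6 SSPCs, grown in flasks from tibial and femoral marrow and taken at passage one, and they differed by age, young (n = 3 libraries) or middle-aged (n = 3 libraries). The lists held 27628 to 43941 peaks in young against 46364 to 48344 in middle-aged libraries. Read numbers are unknown, and relative depth was therefore taken as the genome-wide background solved from the peak values. It was 1.65 to 3.75 extended reads per base in young against 2.40 to 2.79 in middle-aged libraries, with young 3 the shallowest. No label says whether the libraries of a group came from separate mice or cultures, so p-values measure the spread between these libraries, which may be technical.

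The label SSPC was checked against 10 marrow stromal marker genes by counting those with a peak within 1 kb of a TSS. In young 1, 2 and 3 there were 8, 7 and 3 such genes, and in middle-aged 1, 2 and 3 there were 7, 8 and 8. Lepr and Prrx1, which define marrow stromal cells, had no start-site peak in any library, and young 3 stood apart with the lowest count. Of 10 macrophage markers, genes of marrow cells that also adhere to plastic, 9, 10 and 10 had a start-site peak in the young and 9, 9 and 9 in the middle-aged libraries. Of 10 B cell markers, the cells for which Ebf1 is best known, none had one in young libraries and Pax5 alone had one in the middle-aged libraries, while Cd79a and Cd79b had none anywhere. Of 8 adipocyte markers 2 or 3 and of 6 neuron markers 0 or 2 had one in each library. The part of other cells in the results was not tested, and in such bulk libraries more accessible chromatin per cell cannot be told apart from more cells that carry it.

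The sequences that the results turn on are printed along the gene's strand, from RefSeq's copy of mouse build GRCm38, the same as mm10. First come the 300 bases that end just before the TSS where peaks were called for Ebf1 and Ebf3, then those before the most upstream TSS of Ebf4, where no library had a peak. They are followed by the region upstream of Ebf3 and by the Ebf4 region called in middle-aged libraries alone, 300 bases each around the mean summit. Capitals mark matches, on either strand, to the letters of an AP-1 site (TGANTCA), a RUNX site (TGTGGT), a GC box (GGGCGG) or a CCAAT box (CCAAT). None of the capital stretches overlaps another.
Ebf1 start, chr11:44617017-44617316, plus strand: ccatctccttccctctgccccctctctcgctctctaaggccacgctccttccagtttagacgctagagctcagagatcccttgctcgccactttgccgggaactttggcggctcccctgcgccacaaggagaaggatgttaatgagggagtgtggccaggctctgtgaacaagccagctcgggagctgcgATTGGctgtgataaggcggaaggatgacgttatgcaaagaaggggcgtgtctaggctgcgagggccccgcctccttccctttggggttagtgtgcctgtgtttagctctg
Ebf3 start, chr7:137314446-137314745, minus strand: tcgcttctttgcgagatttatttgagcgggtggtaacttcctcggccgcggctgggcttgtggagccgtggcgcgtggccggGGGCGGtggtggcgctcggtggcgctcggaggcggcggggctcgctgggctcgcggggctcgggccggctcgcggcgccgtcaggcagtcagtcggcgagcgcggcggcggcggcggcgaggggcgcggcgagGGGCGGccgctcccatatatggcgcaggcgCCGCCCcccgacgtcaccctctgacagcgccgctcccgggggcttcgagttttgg
Ebf4 start, chr2:130294869-130295168, plus strand: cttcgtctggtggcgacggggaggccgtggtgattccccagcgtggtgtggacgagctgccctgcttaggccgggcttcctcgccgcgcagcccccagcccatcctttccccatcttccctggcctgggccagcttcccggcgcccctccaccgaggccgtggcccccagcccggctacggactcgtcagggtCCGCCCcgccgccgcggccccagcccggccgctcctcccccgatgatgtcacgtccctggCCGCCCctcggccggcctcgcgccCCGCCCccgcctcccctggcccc
Ebf3 upstream, chr7:137321516-137321815, minus strand: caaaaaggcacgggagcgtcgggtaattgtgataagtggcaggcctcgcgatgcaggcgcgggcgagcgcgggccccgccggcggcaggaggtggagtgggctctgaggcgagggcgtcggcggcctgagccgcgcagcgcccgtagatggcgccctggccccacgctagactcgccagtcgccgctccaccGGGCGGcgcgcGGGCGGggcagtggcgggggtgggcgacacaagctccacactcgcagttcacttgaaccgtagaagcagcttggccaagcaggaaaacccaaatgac
Ebf4 intron, chr2:130350449-130350748, plus strand: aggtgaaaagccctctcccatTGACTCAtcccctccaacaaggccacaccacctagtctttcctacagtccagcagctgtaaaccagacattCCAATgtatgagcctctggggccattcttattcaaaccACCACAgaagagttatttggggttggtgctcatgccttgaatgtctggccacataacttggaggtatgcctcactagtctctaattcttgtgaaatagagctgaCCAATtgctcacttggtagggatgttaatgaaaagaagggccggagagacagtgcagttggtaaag

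The start-site windows differed in base composition. GC content was 58.7% for Ebf1, 75.7% for Ebf3 and 77.0% for Ebf4, and the windows held 14, 49 and 33 CpG dinucleotides. The Ebf3 and Ebf4 start windows each held 3 GC boxes, and Ebf1 held none. The upstream Ebf3 window resembled a promoter in composition, with 70.0% GC, 36 CpG and 2 GC boxes, although no TSS is annotated there. The Ebf4 intron window was the opposite, with 47.3% GC and 1 CpG, and it held 1 AP-1 and 1 RUNX match. For comparison, the median GC content of 300 bases around the summit was 64% in regions at a protein-coding TSS and 48% in the others.

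No Ebf region held the palindromic EBF letters (TCCC, any 2 bases, then GGGA) within 300 bases around its summit. Over all regions the share was 1.08%, so low that none among 17 regions is no departure from it. The RBPJ letters (GTGGGAA), named for the DNA-binding factor of the Notch pathway, stood in the windows of the Ebf2 region 39.1 kb into the gene and of the Ebf1 region 68.7 kb into the gene, against 7.03% of all regions. The other shares over all regions were 19.0% for AP-1, 27.3% for RUNX, 22.9% for the GC box, 31.7% for the CCAAT box and 11.1% for the TATA box (TATAAA). Several shares depended on position. The GC box stood in 63.6% of regions at a protein-coding TSS and in 9.15% of the others. For AP-1 these shares were 6.12% and 23.4%, and for RUNX 12.9% and 32.2%. Such a match is a description of letters and says nothing of binding.

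**Figure D1:**
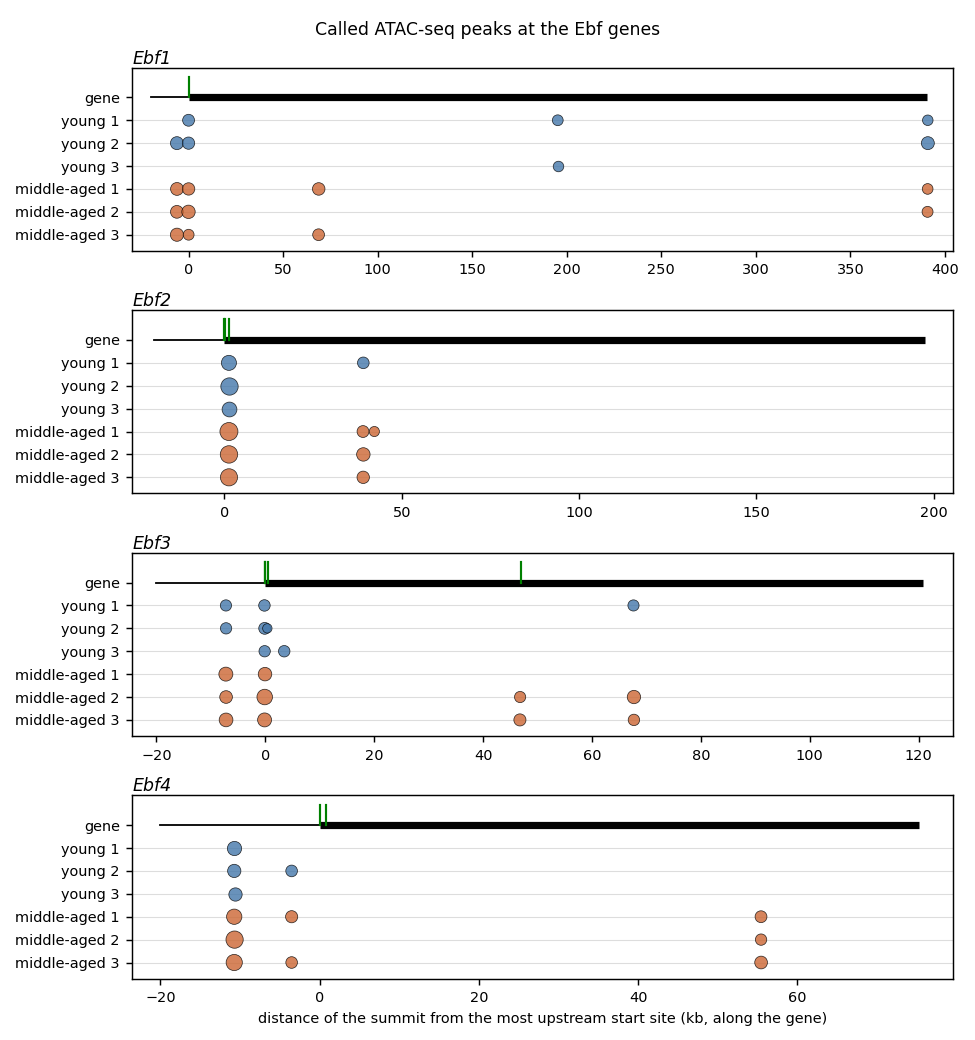
Peaks called at each Ebf gene in each library. The x axis is the distance of the summit from the most upstream TSS in kb along the gene, circles are peaks with an area proportional to fold enrichment, blue for young and orange for middle-aged libraries, the black bar is the gene body, the thin line the 20 kb upstream and the green ticks the protein-coding TSSs. Ebf4 has no circle at its TSSs in any of the 6 libraries, and Ebf2 and Ebf3 have one in every library.

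The first comparison asked how many peaks the Ebf loci held at each age. Young 1, 2 and 3 held 8, 8 and 5 peaks at the 4 loci together, and middle-aged 1, 2 and 3 held 11, 11 and 13. The counts did not overlap, at 7 ± 1.73 (SD, n = 3) against 11.7 ± 1.15 (SD, n = 3), a difference of 4.67 peaks with the lowest p that 3 against 3 can give (two-sided exact permutation p = 0.1). Per 10000 peaks of the library's own list they were 1.95 ± 0.237 (SD, n = 3) in the young and 2.47 ± 0.189 (SD, n = 3) in the middle-aged libraries, again without overlap (two-sided exact permutation p = 0.1). The list lengths did not overlap between ages either. How often other sets of 4 loci separate in this way was not computed. When all lists were shortened to their best 27628 peaks by −log10 q, the difference fell to 0.667 peaks (two-sided exact permutation p = 0.7), and without young 3 it was 3.67.

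The extra peaks were spread over the 4 genes. Ebf1 held 2, 2 and 1 peaks in young against 3, 3 and 3 in middle-aged libraries, which did not overlap. In middle-aged 2, however, 1 of the 3 peaks touched the 3′ end of the gene by only 3 bp. The same region was called in young 1, young 2 and middle-aged 1 just outside the gene and was not counted there. The separation of the Ebf1 counts rests on that peak. Of 16951 protein-coding loci with a peak, 6.6% had more and 0.0944% had fewer peaks in every middle-aged than in every young library. Ebf2 held 2, 1 and 1 against 3, 2 and 2, and Ebf4 held 1, 2 and 1 against 3, 2 and 4. Every Ebf4 count includes the start site of another gene, Idh3b, which gave 2 peaks in middle-aged 3. The Ebf4 difference was 1.67 peaks, and 1.33 with peaks at start sites of other genes left out. Ebf3 overlapped most, with 3, 3 and 2 peaks in young against 2, 4 and 4 in middle-aged libraries. Adjusted by the Benjamini-Hochberg method over the 4 loci, the exact permutation p-values were 0.4 for Ebf1, Ebf2 and Ebf4 and 0.6 for Ebf3. With equally long lists the difference was -0.333 peaks for Ebf1, 0 for Ebf2, 0.667 for Ebf3 and 0.333 for Ebf4.

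Of the 17 regions, 10 were called in more middle-aged than young libraries, 3 in fewer and 4 in equally many. That is 58.8% and 17.6% of the Ebf regions, beside 47.1% and 9.02% of all regions, and no difference was read from shares of 17 regions. 3 regions were called in all 6 libraries, 2 in all but young 3, and 3 in a single library. With equally long lists 11 Ebf regions were left, of which 3 were called in more middle-aged libraries. 3 Ebf regions were called in all middle-aged libraries and in at most 1 young library, a class that holds 7.64% of all regions, and none showed the opposite pattern, which holds 0.216%. These 3 lay at Ebf1, Ebf2 and Ebf4 and are described with their genes.

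Fold enrichment, the peak caller's ratio of the reads over the summit to the local background, ran from 3.03 to 11.1 over all Ebf peaks. The percentile rank of a peak by −log10 q within its own list, where 100 is the best peak, ran from 0.619 to 83.4. The highest rank was that of the Ebf2 start site in middle-aged 1.

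**Figure D2:**
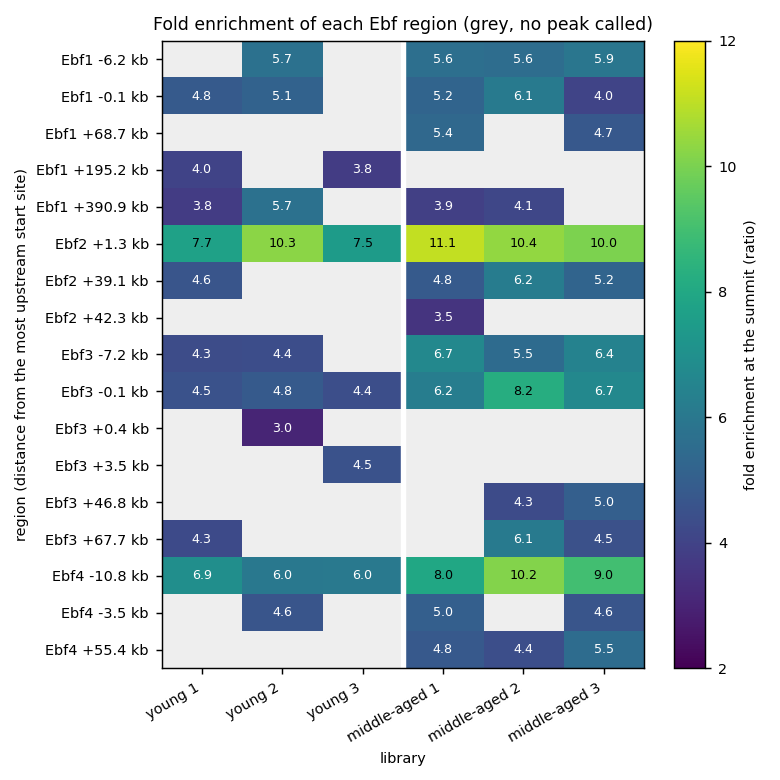
Fold enrichment at the summit of each Ebf region (vertical axis, named by gene and distance from the most upstream TSS) in each library (horizontal axis), by colour and printed in each cell, with grey where no peak was called. The Ebf2 start site, 1.3 kb from the most upstream TSS, has the highest values, up to 11.1 in middle-aged 1, and 3 rows are filled in all 6 libraries.

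Ebf3, which is read from the minus strand of chromosome 7 (chr7:137193673-137314445), has 3 TSSs close together and another in the gene body. The peak at the first (chr7:137314184-137314769, over the first exon, the 5′ UTR and the promoter) was called in every library, with summits at -159 to -55 bp from the most upstream TSS, within the printed Ebf3 start sequence. Fold enrichment was 4.52, 4.83 and 4.41 in young 1, 2 and 3, against 6.23, 8.23 and 6.65 in middle-aged 1, 2 and 3. Every middle-aged value lay above every young value, with means of 4.59 ± 0.215 (SD, n = 3) and 7.04 ± 1.05 (SD, n = 3) and 1.53 as their ratio (two-sided exact permutation p = 0.1, the lowest that 3 against 3 can give). Fold enrichment separated the ages in this direction in 27.4% of the 22403 regions called in all 6 libraries.

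Reads over the Ebf3 summit showed the same separation. The summit pileup, solved from the caller's fold enrichment and p-value, was 38, 41 and 20 extended reads in the young and 49, 68 and 61 in the middle-aged libraries. Divided by the genome-wide background of each library, so that depth is taken out, it was 10.1, 14.5 and 12.1 times the background in young against 19.3, 28.3 and 21.8 times in middle-aged libraries. The lowest middle-aged height exceeded the highest young height, and the ratio of the means was 1.89 (two-sided exact permutation p = 0.1). The height of 40.2% of regions called in all 6 libraries separated in this way. Without young 3 the ratio was 1.88, and that of fold enrichment was 1.51. Peak width overlapped between the ages, at 399 ± 150.2 bp (SD, n = 3) and 505 ± 81.0 bp (SD, n = 3) (two-sided exact permutation p = 0.5).

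The local background at the Ebf3 start site was itself high, at 7.62, 7.70 and 3.76 reads per base in young against 7.02, 7.38 and 8.32 in middle-aged libraries. It was over 2 times the genome-wide background in each library.

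The percentile rank of the Ebf3 start-site peak was 49.9, 56.9 and 21.6 in young against 70.7, 82.7 and 76.1 in middle-aged libraries. The means differed by 33.7 points without overlap (two-sided exact permutation p = 0.1), and without young 3, which had the lowest rank and few stromal start-site peaks, by 23.1 points. With equally long lists the change was 30.6 points, and when start-site peaks were ranked among themselves it was 15.9 points. Ranks at start sites were higher at middle age in general. Over the 10558 genes with a start-site peak in all 6 libraries the median change was 4.96 points (interquartile range 1.55 to 10.6), and 30.6% of these genes were higher in every middle-aged than in every young library. The Ebf3 change stood at the 99.5th percentile of these changes, where Ebf2 stood at the 70.6th. A rank cannot exceed 100, so a start site that ranked high in young libraries had less room to rise. The young mean was 42.8 for Ebf3 and 72.2 for Ebf2, and the changes were not matched on it. The percentile was not recomputed without young 3.

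**Figure D3:**
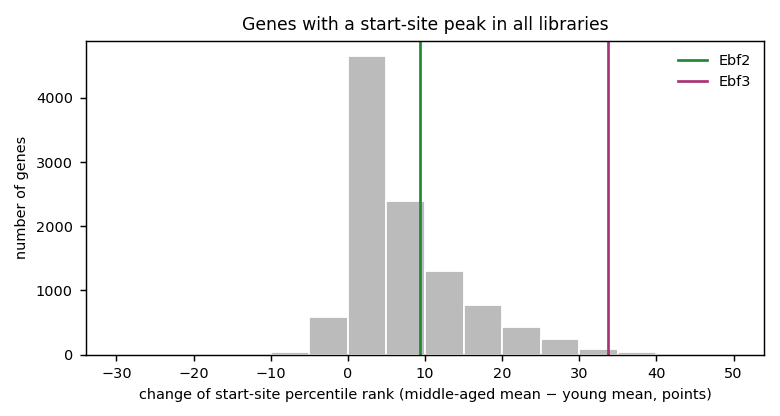
Change of the start-site percentile rank (horizontal axis, middle-aged mean minus young mean in points) for the 10558 genes with a start-site peak in all 6 libraries, as the number of genes per bin of 5 points (vertical axis). The line for Ebf3 at 33.7 lies in the right tail, and that for Ebf2 at 9.32 lies near the bulk of the genes.

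In a fit by limma of log2 fold enrichment, centred within each library, over the 22403 regions called in all 6 libraries, the Ebf3 start-site region was 0.37 higher on the log2 scale in middle-aged libraries (SE 0.18, Benjamini-Hochberg adjusted p = 0.609). It thus failed the correction although it was higher in 3 of 3 middle-aged libraries. Genome-wide, 1 region passed an adjusted p of 0.05 upward (0.00446%) and 0 passed downward, while 1812 had an unadjusted limma p under 0.05. The log2 height over the genome-wide background, with no centring, put 2393 regions (10.7%) higher and 0 lower, with a median over all regions of 0.39. On that scale, where the genome as a whole shifted, Ebf3 was 0.91 higher (limma, adjusted p = 0.0251), and after centring on the library median 0.56 higher (limma, adjusted p = 0.192).

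The peak 7.2 kb upstream of Ebf3 (chr7:137321527-137321829, intergenic) is the printed GC-rich upstream sequence. It was called in all libraries but young 3, and its summits lay within 40 bp of each other. Fold enrichment was 4.33 and 4.38 in young 1 and 2, against 6.68, 5.48 and 6.45 in middle-aged 1, 2 and 3. Its percentile rank was 27.9 and 28.7 in young against 59.6, 42.9 and 59.2 in middle-aged libraries. Both measures separated the ages, with the smallest p that 2 against 3 libraries allow (two-sided exact permutation p = 0.2). Of the 5491 regions called in all libraries but young 3, fold enrichment separated in this direction in 28.2% and rank in 23.6%.

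In each library with both peaks the Ebf3 start-site peak ranked above the upstream one, by 22.1 and 28.2 points in young 1 and 2 and by 11.1, 39.7 and 16.9 points in middle-aged 1, 2 and 3. The gap overlapped between ages and changed by -2.55 points (two-sided exact permutation p = 1). In young 3 an upstream summit of the mean height seen elsewhere would have held 15.6 extended reads, above the 8 reads of the lowest peaks that list holds at the genome-wide background. A higher local background raises that limit, and the mean height is taken only from libraries where the peak was called.

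Inside Ebf3 each region was called in at most 3 libraries. The region 46.8 kb into the gene (chr7:137267492-137267828), at the most downstream TSS, was called in middle-aged 2 and 3, at ranks of 14.4 and 26.2, and in no young library. The intronic region 67.7 kb into the gene (chr7:137246571-137246884) was called in young 1 at a rank of 23.0 and in middle-aged 2 and 3 at 48.7 and 22.1. The remaining 2 regions were each called in 1 young library, at 0.4 kb in young 2 and at 3.5 kb in young 3, the first at a fold enrichment of 3.03 and the second at 4.51. No intronic Ebf3 region separated the ages.

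Ebf2 (chr14:67233292-67430918, plus strand) has 3 TSSs, and its start-site peak lay at the most downstream of them, 1.3 kb from the first. The summits at 1218 to 1287 bp fell just before that TSS, in an intron of the longer transcripts. Fold enrichment was 7.74, 10.3 and 7.49 in young against 11.1, 10.4 and 10.0 in middle-aged libraries, and the groups overlapped (two-sided exact permutation p = 0.2). It was the strongest Ebf peak in each library by fold enrichment.

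The rank of the Ebf2 start-site peak was 75.2, 81.8 and 59.6 in young against 83.4, 80.3 and 80.9 in middle-aged libraries. Young 2 lay among the middle-aged libraries and young 3 far below them, and the difference of 9.32 points did not exceed the spread (two-sided exact permutation p = 0.3). The difference was 3.02 points without young 3 and -1.35 points when start-site peaks were ranked among themselves. The height over the genome-wide background was 15.9 ± 3.12 (SD, n = 3) in young against 20.8 ± 1.42 (SD, n = 3) in middle-aged libraries without overlap (two-sided exact permutation p = 0.1). The height separated the ages in this direction in 40.2% of regions called in all 6 libraries. In limma on the depth-scaled summit pileup the Ebf2 log2 difference of 0.41 (adjusted p = 0.173) stood at the 54.2th percentile of all regions. In limma its log2 fold enrichment differed by 0.08 (SE 0.14, adjusted p = 0.905).

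Set side by side within a library, the start-site peaks of Ebf3 and Ebf2 lay closer in rank in the middle-aged libraries. The Ebf3 rank minus the Ebf2 rank was -25.3, -24.9 and -38.0 points in young 1, 2 and 3, against -12.7, 2.41 and -4.81 points in middle-aged 1, 2 and 3. The groups did not overlap, and the gap changed by 24.4 points (two-sided exact permutation p = 0.1, adjusted over 5 pairs of regions p = 0.333). Without young 3 the change of the gap was 20.1 points. The Ebf3 rank was known from earlier results of these data when it was made the base of this comparison. The test therefore adds no support beyond the Ebf3 change itself. How often other pairs of regions separate in this way was not computed. A rank cannot exceed 100, and Ebf2 already ranked at up to 81.8 in young libraries.

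The Ebf2 region 39.1 kb into the gene (chr14:67272184-67272649) lies in an intron and was called in young 1 and in all middle-aged libraries. Fold enrichment was 4.63 in young 1 and 4.82, 6.18 and 5.24 in middle-aged 1, 2 and 3. Its rank was 26.1 in young 1 and 26.2, 45.9 and 34.5 in the middle-aged libraries, so that the called young peak was about equal to the lowest middle-aged one. A summit of the mean height where called would have held 20.5 extended reads in young 2 and 11.9 in young 3, where the lowest peaks at the genome-wide background held 10 and 8. That mean comes only from libraries where the peak was called, mostly middle-aged ones, and a higher local background raises the limit. Why no peak was called in young 2 and 3 was not tested. The remaining region, 42.3 kb into the gene, was called in middle-aged 1 alone at a rank of 1.83.

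**Figure D4:**
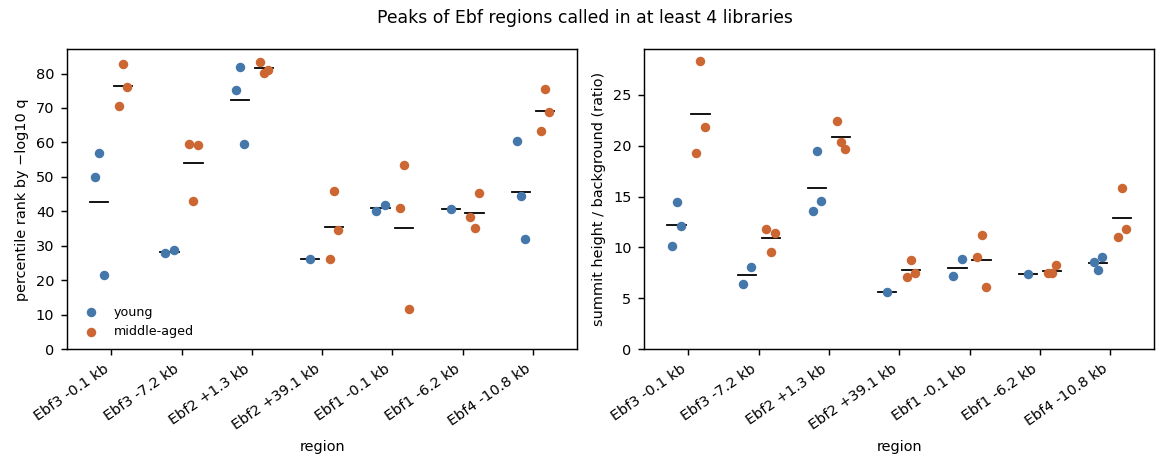
Percentile rank by −log10 q within the library's list (left) and summit height divided by the genome-wide background (right) for the Ebf regions called in at least 4 libraries, other than that at the 3′ end of Ebf1. Points are libraries, blue for young and orange for middle-aged, lines are means over the libraries with a peak, and the Ebf3 start site shows the widest gap in height, 12.3 against 23.1.

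Ebf1 (chr11:44617317-45008091, plus strand) is the longest of the genes and has a single TSS. The start-site peak (chr11:44617030-44617378), over the end of the printed Ebf1 sequence and the first exon with its 5′ UTR, was called in all libraries but young 3. Fold enrichment was 4.84 and 5.14 in young 1 and 2, against 5.22, 6.11 and 4.04 in middle-aged 1, 2 and 3. The ages overlapped fully, with the lowest and the highest value both at middle age (two-sided exact permutation p = 0.8). Its rank was 40.3 and 41.9 in young against 40.9, 53.3 and 11.7 in middle-aged libraries (two-sided exact permutation p = 1).

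The Ebf3 rank minus the Ebf1 rank at the start sites was 9.66 and 15.0 points in young 1 and 2, against 29.8, 29.3 and 64.5 points in middle-aged 1, 2 and 3. Ebf3 ranked above Ebf1 in each of these libraries, and by more in every middle-aged one (two-sided exact permutation p = 0.2, adjusted over 5 pairs of regions p = 0.333). Here too the Ebf3 rank was known beforehand, so the test adds no support beyond the Ebf3 change itself. Without young 3, which lets the Ebf1 start site enter the limma fit, the Ebf1 log2 fold enrichment differed by -0.19 (SE 0.21, adjusted p = 0.878) and that of the upstream Ebf3 region by 0.30 (SE 0.20, adjusted p = 0.787).

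The Ebf1 region 6.2 kb upstream (chr11:44610863-44611197), over an exon of Gm37695, a transcript still to be experimentally tested in the annotation, was called in young 2 and in all middle-aged libraries. Where called, its fold enrichment was 5.74 in young 2, within the range of the 5.65, 5.58 and 5.91 in middle-aged 1, 2 and 3. Its rank was 40.6 in young 2 and 38.4, 35.2 and 45.4 in the middle-aged libraries. A summit of the mean height where called would have held 28.7 extended reads in young 1 and 12.6 in young 3, above the lowest peaks of 13 and 8 reads at the genome-wide background there. That mean comes only from libraries where the peak was called, mostly middle-aged ones, and a higher local background raises the limit. Why no peak was called in young 1 and 3 was not tested.

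The other Ebf1 regions were called in up to 4 libraries. The region at the 3′ end of the gene (chr11:45008089-45008442), called in 2 young and 2 middle-aged libraries, overlapped the gene body in middle-aged 2 alone, by 3 bp of the 3′ UTR. Its fold enrichment was 3.79 and 5.74 in young 1 and 2, against 3.91 and 4.12 in middle-aged 1 and 2. The intronic region 68.7 kb into the gene was called in middle-aged 1 and 3, and that 195.2 kb into the gene in young 1 and 3. The last of these is the Ebf region called in 2 young and no middle-aged libraries, at ranks of 11.3 and 0.619.

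Ebf4 (chr2:130295169-130370481, plus strand) had no peak within 1 kb of its 2 TSSs in any library. The GC-rich sequence before the first of them is printed above. Its peaks lay upstream and in an intron. The region 10.8 kb upstream (chr2:130283918-130284627) is the start site of Idh3b, a subunit of mitochondrial isocitrate dehydrogenase, and was called in every library. Fold enrichment there was 6.95, 6.00 and 6.04 in young against 7.97, 10.2 and 8.96 in middle-aged libraries.

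The Idh3b start site had a rank of 60.3, 44.4 and 31.9 in young against 63.3, 75.4 and 68.9 in middle-aged libraries (two-sided exact permutation p = 0.1). These did not overlap, as in 24.3% of regions called in all 6 libraries. The change was 23.7 points, or 16.9 without young 3. It differed from that of Ebf3 by 10.0 points within libraries, which did not exceed the spread (two-sided exact permutation p = 0.4, adjusted over 5 pairs p = 0.5). Nor did that between Ebf2 and the Idh3b start site, -14.3 points (two-sided exact permutation p = 0.2, adjusted p = 0.333). In limma the Idh3b start site differed by 0.27 (SE 0.17, adjusted p = 0.681).

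The Ebf4 region 55.4 kb into the gene (chr2:130350416-130350719), the intron sequence with the AP-1 letters, was called in all middle-aged and no young libraries. Its fold enrichment was 4.80, 4.41 and 5.54 in middle-aged 1, 2 and 3, and the summits lay within 11 bp of each other. The ranks of 22.4, 11.8 and 36.1 placed it in the lower part of each list. A summit of the same mean height would have held 24.1, 18.2 and 10.6 extended reads in young 1, 2 and 3, where the lowest peaks at the genome-wide background held 13, 10 and 8. A peak of that height would lie above the limit of each young list unless the local background was raised. The height is, however, a mean over middle-aged libraries alone, where the region passed the caller. Depth-scaled heights were also higher at middle age in general, with a median log2 difference of 0.39 over regions called in all 6 libraries. Why no young peak was called was not tested.

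The Ebf4 region 3.5 kb upstream (chr2:130291543-130291790) was called in young 2 and in middle-aged 1 and 3. Its fold enrichment was 4.63 in young 2 and 5.04 and 4.62 in the middle-aged libraries, and its summits lay within 4 bp of each other.

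The genes with start-site ranks most like those of Ebf3 over the 6 libraries, by Euclidean distance in points, were Hgh1 (distance 8.58), Eif3g (9.24), Acaa1b (12.5), Rab36 (12.7) and Mtx1 (13.2). Eif3g encodes a subunit of a translation initiation factor, Acaa1b a peroxisomal thiolase, Rab36 a small GTPase and Mtx1 a mitochondrial outer membrane protein. The likeness is over 6 values that share depth and list length.

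Genes tied to EBF function by earlier knowledge were counted in the same way, as 36 genes in 5 groups. In total 6 of them (16.7%) had a start-site peak in more middle-aged than young libraries and 0 in fewer, where 10.2% of all protein-coding genes had more. Of the 22 with a peak in all 6 libraries, 8 (36.4%) ranked higher in every middle-aged than in every young library, beside 30.6% of all such genes, and 0 ranked lower in every one. Their median change was 6.81 points, against 4.96 over all genes.

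The 7 partners and regulators of EBF proteins had a start-site peak in 7, 7 and 6 cases in young and in 7 cases in each middle-aged library, with a median change of 7.61 points. Of the 6 partners with a peak in all 6 libraries, 4 ranked higher in every middle-aged than in every young library, as did 30.6% of all such genes. No difference was read from groups this small. The 4 whose ranks did not overlap, named after their values were seen, were Zfp521 (26.7 points higher at middle age), a zinc finger protein that binds EBF1, Tle3 (26.3), a corepressor, Tcf3 (11.0), the E protein that acts with EBF1 in B cell development, and Id2 (4.22), an inhibitor of E proteins. These 4 changes span from below the median of all genes to well above it.

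Of 8 niche genes, 5, 4 and 2 had a start-site peak in young against 4, 5 and 5 in middle-aged libraries, and Lepr, Vcam1 and Adipoq had none. Angpt1, a niche factor that binds the Tie2 receptor, was called in 1 young library at a rank of 8.47 and in all middle-aged libraries at 20.4, 50.1 and 11.2. Of 6 fat genes, 5, 6 and 4 had one in young against 6 in each middle-aged library. Cebpb (21.3 points higher at middle age) and Cebpd (6.53), early factors of fat cell formation, did not overlap in rank and were named after their values were seen. They were 2 of the 4 fat genes with a peak in all 6 libraries. Fabp4, a fatty acid carrier of adipocytes, was called in 1 young library at a rank of 9.84 and in all middle-aged libraries at 37.3, 47.9 and 50.5.

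Of 6 bone genes, 3 in each young library and 4, 3 and 4 in middle-aged libraries had a start-site peak, and Sp7 and Bglap had none. Alpl, the alkaline phosphatase of early osteoblasts, was called in no young library and in middle-aged 1 and 3, at ranks of 24.0 and 8.33. Of 9 Notch pathway genes, 7 had a start-site peak in every library and Notch3 and Heyl in none, with a median change of 7.10 points. Notch2 (7.95 points higher at middle age), a receptor, and Ncstn (9.75), a subunit of gamma-secretase, did not overlap and were also named after their values were seen. They were 2 of the 7 Notch pathway genes with a peak in all 6 libraries, beside 30.6% of all such genes. The median changes of the niche, fat and bone groups were 7.53, 5.10 and 13.1 points, over 2, 4 and 3 genes with a peak in all libraries. The 2 niche genes and the 3 bone genes overlapped between ages, and Dlx5, a factor of osteoblast formation, changed by -8.22 points.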

How the data were processed

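ATAC-seq was performed on 3 young and 3 middle-aged SSPC libraries. Per the study's methods, the authors made reads with bcl2fastq, mapped them to mm10 with Bowtie2, dropped duplicates with Sambamba and ran MACS on each library. A shift for the transposase offset is not given in the sources used here. Each deposited list gives a whole-number score, a fold enrichment (a linear ratio to the local background, without a control library), and the −log10 of p and q. From the authors' fold and −log10 p the summit pileup, taken as a whole number, and the local background were solved under a Poisson model. The solved values gave back the listed −log10 p within 0.001 for 99.96% of peaks in middle-aged 2, the list with the lowest share. The lowest background of a list served as its relative depth.

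TSSs came from the GENCODE annotation of mm10, and sequences from RefSeq's GRCm38. The Ebf2 start-site sequence is not reported here. Groups follow the sample titles. Differences between ages were tested by exact permutation over 20 assignments (two-sided, smallest p = 0.1), and log2 fold enrichment over all shared regions by limma 3.58.1 (trended eBayes, Benjamini-Hochberg) in R 4.3.3, which was tested on simulated data. Other steps used Python 3.11.15 with numpy 2.4.6, pandas 2.3.3 and scipy 1.17.1. Lists of peaks hold no values where no peak was called, so no level was assigned there. Any 2 lists shared at most 52 identical intervals.

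The Ebf genes, regions, gene lists and marker lists were chosen with earlier results of these data known. Regions given in full were those at an Ebf start site in at least 3 libraries, the 3 other regions per gene in most libraries, and those in all libraries of one age and at most 1 of the other. Listed genes were named where the ages differed by at least 2 libraries, and the 5 genes nearest to Ebf3 by Euclidean distance. Listed genes whose ranks did not overlap were named after their values were seen. Alternatives tried were peaks with a −log10 q of 5 or more, equally long lists, 5 or 50 kb upstream, peaks at other genes' TSSs left out, other ranks and windows of 500 bp, reciprocal overlap, a replicate block, other limma scales and leaving out each library. Per the methods, the authors compared ages with DiffBind, which needs reads and was not run here.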

Additional observations from a re-analysis of the deposited data

How the results depend on the processing

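No exact permutation test here could pass 0.05, so sizes and directions were compared, and 2 recomputed values reversed. With equally long lists the difference over all loci was 0.667 peaks, and the rank change was 2.32 points for Ebf2 and 30.6 points for Ebf3. The Ebf1 peak count difference with these lists was -0.333, that of Ebf2 was 0, and 3 of 11 regions (22.9% over all regions) were called in more middle-aged libraries, against 10 of 17. Ranked among start-site peaks, Ebf2 changed by -1.35 points and Ebf3 by 15.9. On depth-scaled summit pileup 1 Ebf region passed limma. Centring that scale, an alternative added after the data were seen, left 0. Leaving out each library gave differences of 3.67 to 5.17 peaks for all loci, 1 to 1.5 for Ebf1, 0.667 to 1.33 for Ebf2, 0.333 to 1.33 for Ebf3 and 1.17 to 2.17 for Ebf4, rank changes of 3.02 to 14.1 for Ebf2 and 23.1 to 40.7 for Ebf3, 8 to 11 regions in more middle-aged libraries and 0 Ebf regions past limma. The Ebf3 peak count difference was 0.333 without young 3, middle-aged 2 or middle-aged 3. The cause of these changes was not tested. The Ebf1 start-site rank was tested over 5 libraries, as young 3 had no peak, and its alternatives were not run. Ebf4 had no start-site peak to rank.

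Deviations of equal-numbered libraries correlated at 0.0116, 0.0115 and -0.0185 over 22403 regions, so that no pairing by number was seen. The labels do not say whether equal numbers share a batch, and these correlations cannot decide it. With the replicate block (exact sign permutation of 3 pairs, smallest p = 0.25) the difference of 4.67 peaks had p = 0.25 and the Ebf3 rank change of 33.7 had p = 0.25, and in limma with the block 0 Ebf regions passed (Ebf3 adjusted p = 0.623).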

Other observations

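Some regions lay just outside the 20 kb upstream of the Ebf genes. The region 21.4 kb upstream of Ebf2 (chr14:67211718-67212074, intergenic) was called in young 1 at a fold enrichment of 3.58 and in middle-aged 1, 2 and 3 at values from 5.0 to 7.75. Its rank was 3.95 in young 1 and 62.7, 23.9 and 56.4 in the middle-aged libraries, so that the single young value lay below all of them, and no test was made. A region 44.6 kb upstream of Ebf2 was called in all 6 libraries, at ranks of 66.5, 74.8 and 55.2 in young and 77.7, 76.0 and 79.9 in middle-aged libraries.

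The region 20.8 kb upstream of Ebf4 is the start site of Nop56, a nucleolar protein of ribosome assembly, and ranked between 89.3 and 97.1 in the 6 libraries. The region 35.8 kb upstream of Ebf1 was called in 3 young and 2 middle-aged libraries with ranks of at most 20.6. A region 29.3 kb upstream of Ebf3 was called in middle-aged 2 alone.

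Pdgfra, a receptor of stromal progenitors, had a start-site peak in 1 young library at a rank of 8.16 and in middle-aged 1, 2 and 3 at 35.7, 42.7 and 53.0. Pax5, a B cell factor, had one in no young library and in the middle-aged libraries at 51.7, 13.8 and 51.8. Csf1r, the macrophage growth factor receptor, had one in young 2 and 3 at 17.3 and 6.19 and in no middle-aged library. It was not typical of its list. The other 9 macrophage markers had a start-site peak in all 6 libraries, with a median rank change of 9.76 points toward middle age. Of these, 3 ranked higher in every middle-aged than in every young library and 0 ranked lower, where 30.6% of all such genes ranked higher.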
